A study of Homo sapiens with 2 samples.

Results

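The genes described here encode cell adhesion molecules of the immunoglobulin superfamily. There were 10 on the list: NRCAM, L1CAM, NFASC and CHL1, which form the L1 family, CADM1, CADM2, CADM3 and CADM4, which are nectin-like molecules, and NCAM1 and ALCAM. NRCAM and CADM1 were selected on their measured difference between the lines compared here, and the others were added as relatives of these genes. A gene was measured where a transcript cluster, the array's unit for all probes of a transcript, was annotated to its symbol alone. This gave 9 genes with 1 cluster each, of 22410 genes and 67524 clusters in all. CADM2 had no such cluster in the annotation used and was not analysed here.

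The study measured transcripts in OAW42-R and OAW42, human serous ovarian carcinoma cell lines. OAW42 is sensitive to cisplatin, and OAW42-R is its resistant derivative, selected by stepwise cisplatin treatment with drug-free intervals. Both lines were grown in the same medium with no drug in the culture that was measured, and total RNA of each was hybridised to 1 whole-transcript array. With 1 array per line no value has a measured error and no test between the lines was possible. The state of a culture and the line itself cannot be told apart.

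Molecules of this superfamily carry immunoglobulin domains on the cell surface, with which they bind the same molecule or a related molecule on a neighbouring cell. Their short tails inside the cell anchor to the cytoskeleton. L1 family tails bind ankyrins, and tails of nectin-like molecules bind proteins of the band 4.1 and PDZ-domain families. Most were first studied in neurons, where they guide axons and build synapses. Several are also known from carcinomas: L1CAM from ovarian and endometrial tumours, ALCAM from many epithelial tumours, and CADM1 as a tumour suppressor that is often silenced in lung cancer.

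Signals are log2 values from RMA, a method that corrects background, gives all arrays the same distribution and summarises the probes of a cluster. Differences are OAW42-R minus OAW42 on that scale, where 1 is a 2-fold difference. Levels of different genes cannot be compared, since each cluster has its own probes. The median of all clusters was 6.34 in OAW42-R against 6.30 in OAW42, and a gene was taken as above the floor where its brighter array reached that array's median. This held for 15946 genes, with a median difference of 0.00 and a central 95% from -0.44 to 0.53. All 13 ovarian carcinoma markers lay above the median on both arrays, among them PAX8 at 11.67 in OAW42-R against 11.40 in OAW42. ESR1 lay only just above it, at 6.36 in OAW42-R against 6.31 in OAW42. Of the markers of other cells, 6 of 10 for neurons lay above it on both arrays, 5 of 5 for glia, 4 of 7 for fibroblasts and 2 of 4 for mesothelial cells. For leukocytes it was 2 of 5 in OAW42-R and 3 of 5 in OAW42. The median is not a detection level, and a signal above it does not show that a gene was expressed.

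Of the 9 genes described here, NRCAM and CADM1 were at least 2-fold lower in OAW42-R, and L1CAM lay on the other side. NRCAM was 3.1-fold and CADM1 2.85-fold lower, ALCAM was 1.83-fold lower, and L1CAM was 1.97-fold higher. NCAM1 was 1.32-fold lower. The remaining 4 genes, CADM3, CADM4, NFASC and CHL1, differed by less than 0.2 in size. All 9 genes were above the median on both arrays, so none entered through 1 line alone.

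**Figure D1:**
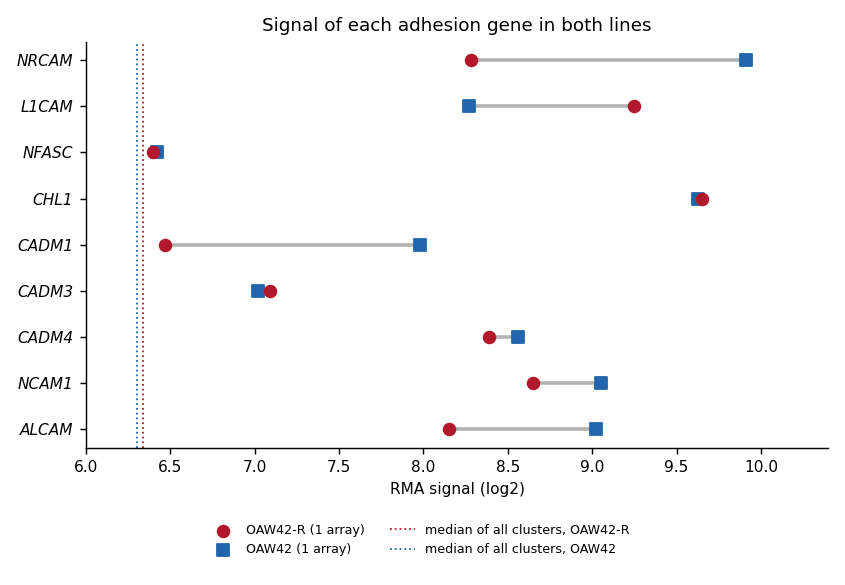
RMA signal (log2, horizontal axis) of the 9 measured adhesion genes, with a red circle for the OAW42-R array, a blue square for the OAW42 array and dotted lines at the median of all clusters on each. NRCAM (8.28 in OAW42-R, 9.91 in OAW42), CADM1 and ALCAM have the red point to the left, L1CAM (9.25 and 8.27) has it to the right, and the points of NFASC and CHL1 nearly coincide.

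At least 2-fold lower in OAW42-R were 2 of the 9 genes, NRCAM and CADM1, and 0 were at least 2-fold higher. Over all genes above the floor these shares were 0.339% and 0.539%. At 1.5-fold, 3 genes were lower and 1 was higher, against 1.32% and 2.02% of all genes. The list was built around these 2 genes, so nothing is read from these shares. The median difference of the 9 genes was -0.17, and their differences ran from -1.63 to 0.98.

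In the L1 family, members went in opposite directions. NRCAM, the neuronal cell adhesion molecule, is found with ankyrin at nodes of myelinated axons and is known as a target of beta-catenin signalling in colon cancer. Its signal was 8.28 in OAW42-R against 9.91 in OAW42, a difference of -1.63. Its linear signal in OAW42-R was 32.3% of that in OAW42. The signal stayed well above the median in OAW42-R, by 1.94 on the log2 scale, and lay at the 81.7th percentile of all clusters there, against the 95.3rd in OAW42. NRCAM ranked 16 from the lowest of the 15946 differences. Of the 3395 genes with a mean signal within 0.5 of its own, 8 (0.236%), NRCAM included, differed by at least as much in size. The ranks and shares of NRCAM and CADM1 follow from how these genes were chosen and are given as a description. In RNA of a whole culture, fewer cells with the transcript and less transcript per cell cannot be told apart.

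L1CAM, which promotes migration of neurons and of carcinoma cells, had a signal of 9.25 in OAW42-R against 8.27 in OAW42. Its difference of 0.98 was just short of 2-fold. It ranked 88 from the highest, and of 3950 genes of similar signal 32 (0.81%), L1CAM included, differed by at least as much. The differences of NRCAM and L1CAM therefore lay 2.61 apart on the log2 scale. CHL1, the close homologue of L1, had a signal of 9.65 in OAW42-R against 9.63 in OAW42. NFASC, which encodes neurofascin of the axon's initial segment, had 6.40 in OAW42-R against 6.42 in OAW42. These NFASC values lie 0.06 and 0.12 above the medians of the arrays, so a difference could hardly be seen there. The differences of CHL1 and NFASC were 0.02 and -0.02, close to the last decimal of the deposited values.

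Among the nectin-like genes, CADM1 alone of the 3 measured differed by more than 0.2. CADM1, also known as TSLC1 or SynCAM1, joins epithelial cells side by side and links nerve cells at synapses. Its signal was 6.47 in OAW42-R against 7.98 in OAW42, a difference of -1.51, which ranked 19 from the lowest. The OAW42-R value is only 0.13 above the array's median, at the 52.7th percentile, while the OAW42 value is at the 78.4th. CADM3, which is mostly neural, had 7.09 in OAW42-R against 7.02 in OAW42. CADM4, which is found in epithelia and on Schwann cells, had 8.39 in OAW42-R against 8.56 in OAW42. These differ by 0.07 and -0.17, and of the genes of similar signal 59.9% and 34.8% differed by at least as much.

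ALCAM, or CD166, binds itself and the lymphocyte receptor CD6. Its signal was 8.15 in OAW42-R against 9.02 in OAW42, and the difference of -0.87 ranked 81 from the lowest. Of 4231 genes of similar signal, 59 (1.39%), ALCAM included, differed by at least as much. NCAM1, or CD56, is the carrier of polysialic acid on neurons and natural killer cells. It had 8.65 in OAW42-R against 9.05 in OAW42, a difference of -0.40, which lies inside the central 95% of all genes. Of its 3825 genes of similar signal, 348 (9.1%) differed by at least as much. NRCAM, CADM1, ALCAM and L1CAM thus lay outside that central range and the other 5 inside it.

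**Figure D2:**
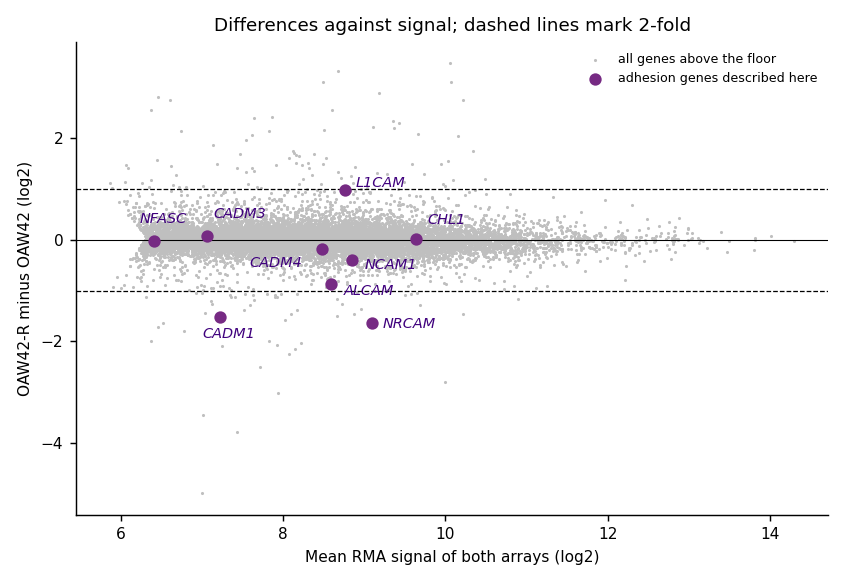
Difference between the lines (OAW42-R minus OAW42, log2, vertical axis) against the mean signal of both arrays (log2, horizontal axis) for 15946 genes above the floor in grey and the 9 adhesion genes in purple, with dashed lines at 2-fold. NRCAM (-1.63) and CADM1 (-1.51) lie below the lower line, L1CAM (0.98) lies just inside the upper line, ALCAM (-0.87) lies just inside, and the other 5 lie in the grey band.

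The promoters of genes that differed are shown next, as the stretches from which these transcripts may start. RefSeq windows of assembly GRCh38.p14, from 250 bases before to 50 after a listed start, were found for 7 of the 10 genes, 13 windows in all. CADM1, CADM2 and NCAM1 had no entry. The most upstream listed window is printed for NRCAM and ALCAM, which were lower in OAW42-R, and for L1CAM, which was higher. Capitals mark the GC box GGGCGG on either strand, a site type bound by Sp factors. NRCAM lies at chr7:108456387-108456686 and L1CAM at chrX:153875965-153876264, both on the minus strand, and ALCAM at chr3:105366659-105366958 on the plus strand.
NRCAM: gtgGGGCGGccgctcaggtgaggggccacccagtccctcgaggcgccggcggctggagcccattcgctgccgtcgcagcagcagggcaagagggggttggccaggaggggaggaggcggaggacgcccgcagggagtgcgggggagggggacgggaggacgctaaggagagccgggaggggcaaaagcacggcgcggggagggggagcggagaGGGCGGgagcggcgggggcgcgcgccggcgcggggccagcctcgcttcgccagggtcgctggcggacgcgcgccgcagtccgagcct
ALCAM: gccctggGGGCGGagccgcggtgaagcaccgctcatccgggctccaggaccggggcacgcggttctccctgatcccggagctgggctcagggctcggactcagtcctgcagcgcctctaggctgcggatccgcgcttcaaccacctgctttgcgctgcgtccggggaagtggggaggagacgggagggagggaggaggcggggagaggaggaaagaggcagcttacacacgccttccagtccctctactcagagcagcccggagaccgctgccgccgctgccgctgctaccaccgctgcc
L1CAM: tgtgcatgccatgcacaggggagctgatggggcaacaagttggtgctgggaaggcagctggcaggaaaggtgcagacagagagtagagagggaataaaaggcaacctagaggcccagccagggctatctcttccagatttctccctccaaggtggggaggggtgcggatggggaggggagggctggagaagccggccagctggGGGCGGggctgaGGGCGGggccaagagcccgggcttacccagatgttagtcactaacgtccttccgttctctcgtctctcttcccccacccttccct

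The windows differed in their density of CpG dinucleotides, the bases at which DNA methylation takes place. NRCAM had 38 in 300 bases, which put it at the 91.3th percentile of the 35116 listed windows, whose median was 14. ALCAM had 26 (71.8th percentile) and L1CAM had 8 (41.6th percentile). The further listed starts of NRCAM lie in CpG-poor sequence, with 3 and 1. The array cannot say which start was used, and methylation was not measured. GC boxes, which contain a CpG themselves, numbered 2 in NRCAM, 1 in ALCAM and 2 in L1CAM, and 45% of all windows held at least 1. The other listed window of L1CAM, which overlaps the printed one, held 10 CpG and 4 GC boxes, so these counts depend on the window. The TATA box TATAAA, in 11.5% of all windows, was in none of the 13 windows of these genes. The same held for the LEF/TCF motif in the forms searched, CTTTGAT or CTTTGAA on both strands, which 6.86% of all windows held. Other forms of the motif were not searched, and CTTTGTT, for example, occurs in a further listed window of NRCAM. A match or its lack in these windows is a description of their letters only.

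Neurons express many of these molecules, so neuronal markers were set beside them. Of the 6 neuronal markers above the floor 3 were higher and 3 lower, with a median difference of -0.02. Past 1.5-fold there were 0, against 1.32% of all genes lower and 2.02% higher, which says little for 6 genes. The neurofilament gene NEFL had a signal of 8.59 in OAW42-R against 8.12 in OAW42, and the synaptic gene SNAP25 had 8.93 in OAW42-R against 8.55 in OAW42. The neurofilament gene NEFM and the synaptic vesicle gene SYP differed by -0.10 and -0.05. The summed linear signal of the 10 measured markers was 1431 in OAW42-R against 1230 in OAW42, a sum that its brightest genes dominate. The part of other cell types in the differences of NRCAM and CADM1 was not tested. The ovarian carcinoma markers had a median of 0.07 and ran from -0.08 to 0.67, the value of the epithelial gene EPCAM. Of the 2 mesothelial markers above the floor, LRRN4 had 8.69 in OAW42-R against 7.78 in OAW42, a difference of 0.91, and UPK3B had 11.38 on each array.

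Partners of CADM proteins, listed together with the nectins and their anchor afadin, were centred on no difference, and NECTIN3 differed most. Of 17 listed genes 16 were measured and 14 were above the floor, with a median of 0.00, the same as over all genes. Of these, 7 were higher and 7 lower. At 1.5-fold, 1 gene was higher and 1 was lower, against 2.02% and 1.32% of all genes above the floor. Past 2-fold there was 1 gene, on the lower side, where the share of all genes above the floor was 0.339%. NECTIN3 encodes nectin-3, an adhesion molecule of adherens junctions that can bind CADM1 across the gap between cells. Its signal was 7.48 in OAW42-R against 8.86 in OAW42, a difference of -1.38 or 2.6-fold. The other nectins were named after this value was seen: NECTIN1, NECTIN2 and NECTIN4 differed by 0.04, 0.07 and -0.11.

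The cytoplasmic proteins of this list had smaller differences in their genes. AFDN, or afadin, is listed as the anchor of nectins, not of CADM1, and had 8.76 in OAW42-R against 9.10 in OAW42. The scaffold gene PALS2 had 8.37 in OAW42-R against 8.86 in OAW42. EPB41, the founding member of the band 4.1 family, went the other way, with 9.05 in OAW42-R against 8.38 in OAW42, a difference of 0.67. EPB41L3, the band 4.1 protein best known as a CADM1 anchor, was below the floor on both arrays, at 5.70 in OAW42-R against 5.68 in OAW42. CRTAM, the receptor of CADM1 on activated lymphocytes, was also below it, at 5.06 on each array.

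Ligands, co-receptors and anchors of the L1 family differed little. All 23 listed genes were measured and 13 were above the floor, with a median of -0.01 and 0 past 1.5-fold in either direction. Shares of all genes past 1.5-fold were 1.32% lower and 2.02% higher, so 0 in so short a list says little. NRP1, or neuropilin-1, a semaphorin receptor that associates with L1CAM, had 9.55 in OAW42-R against 9.09 in OAW42, a difference of 0.46. ANK3, which encodes ankyrin-G, had 7.23 in OAW42-R against 6.89 in OAW42. Genes of the membrane-to-actin linkers ezrin and moesin had small differences, -0.28 for EZR and -0.17 for MSN. The contactins pair with NRCAM and NFASC on axons. Of the 6 contactin genes 5, all but CNTN2, were below the floor, with signals of at most 4.80 in OAW42-R against 4.74 in OAW42.

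Proteases that release these molecules from the membrane were close to equal. Of 11 listed genes 10 were measured and 9 were above the floor, with a median of -0.06 and a range from -0.21 to 0.11. With shares of 1.32% lower and 2.02% higher over all genes, the 0 past 1.5-fold among 9 genes says little. ADAM10, the main sheddase of L1 family molecules, had 9.00 in OAW42-R against 9.19 in OAW42. ADAM17 had 9.24 in OAW42-R against 9.37 in OAW42, the protease gene BACE2 had 6.84 in OAW42-R against 7.05 in OAW42, and PSEN2, of the gamma-secretase complex, differed by -0.14. Transcript levels say nothing of protease activity or of shed protein, which were not measured.

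Among the signalling partners of NCAM1 and ALCAM, the receptor genes GFRA1 and FGFR1 were lower in OAW42-R. Only 5 of 9 measured genes were above the floor, with a median of -0.24. This median was -0.08 with no floor and -0.47 with a floor at the 75th percentile on the brighter array. At least 1.5-fold lower were 2 of the 5, against 1.32% of all genes. GFRA1, a receptor of the growth factor GDNF that works with NCAM1, had 6.58 in OAW42-R against 7.31 in OAW42, a difference of -0.73. FGFR1, the fibroblast growth factor receptor that NCAM1 and L1CAM engage, had 8.75 in OAW42-R against 9.45 in OAW42, a difference of -0.70. PRNP, the prion protein gene, differed by -0.24, and CD6 by -0.08. Of the enzymes that add polysialic acid to NCAM1, ST8SIA2 had 6.86 in OAW42-R against 6.83 in OAW42, and ST8SIA4 was below the floor at 3.78 on each array.

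Other immunoglobulin adhesion genes were spread around 0, with a few higher in OAW42-R. Of 52 listed genes 48 were measured and 34 were above the floor, with a median of -0.03. At 1.5-fold, 3 of these 34 were higher, against 2.02% of all genes above the floor. The count lower was 0, against 1.32% of all genes, which says little for 34 genes. The nectins, with NECTIN3 at -1.38, were listed with the CADM partners and are not counted here. Of the 3 higher, 1 also passed 2-fold, against 0.539% of all genes. ICAM2, a ligand of leukocyte integrins typical of endothelium, had 8.65 in OAW42-R against 7.18 in OAW42, a difference of 1.47 or 2.77-fold. CXADR, the coxsackievirus and adenovirus receptor of epithelial junctions, had 9.55 in OAW42-R against 8.79 in OAW42. MPZL2, an epithelial homophilic adhesion molecule, had 8.07 in OAW42-R against 7.34 in OAW42. JAM3, a junctional adhesion molecule, differed most on the lower side, with 7.72 in OAW42-R against 8.15 in OAW42, a difference of -0.43.

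**Figure D3:**
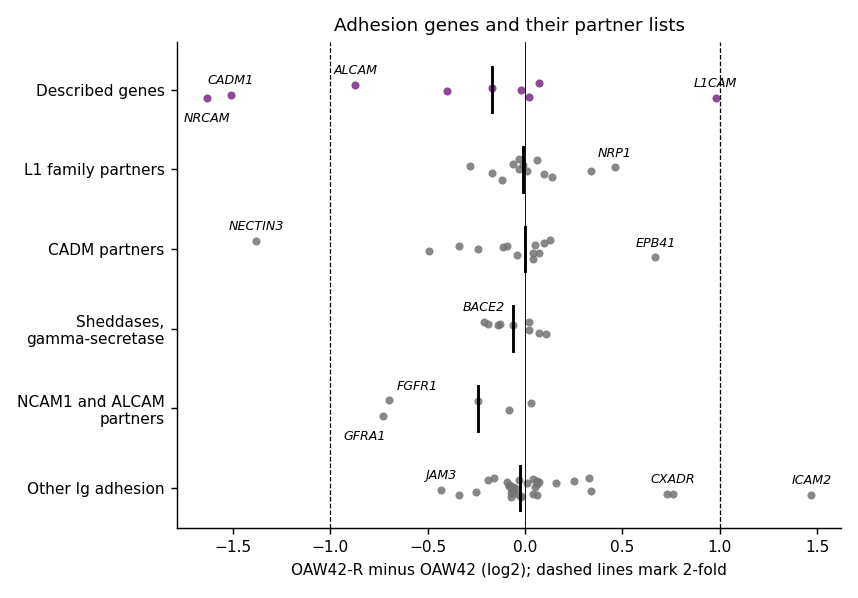
Difference between the lines (OAW42-R minus OAW42, log2, horizontal axis) for each gene above the floor in 6 lists, with a point per gene, a black bar at the median of the list and dashed lines at 2-fold. NRCAM, CADM1 and NECTIN3 (-1.38) lie left of the lower line and ICAM2 (1.47) right of the upper line, while the medians of the 5 partner lists lie between -0.24 and 0.00.

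The genes on either side of NRCAM and CADM1 did not share their differences. Of the 5 nearest genes above the floor on each side of NRCAM on chromosome 7, 3 were lower and 7 higher, with a median of 0.09. The nearest of these were LAMB1, a laminin gene with 11.73 in OAW42-R against 11.75 in OAW42, and PNPLA8 on the other side, which differed by 0.13. The largest difference among the 10 was 0.43, in IMMP2L. Around CADM1 on chromosome 11, 5 genes were lower and 5 higher, with a median of 0.00 and a range from -0.30 in REXO2 to 0.37 in C11orf71. NCAM1 lies on the same chromosome, with 14 genes above the floor between it and CADM1. These had a median of -0.01 and ran from -0.30 to 0.37.

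The neighbours of L1CAM on the X chromosome ran from -0.15 in HCFC1-AS1 to 0.12 in AVPR2. Around ALCAM on chromosome 3 they lay between -0.42 in CEP97 and 0.70 in NFKBIZ, with a median of -0.12. CHL1, near the end of chromosome 3, had 6 neighbours in reach, since 1 side held a single gene above the floor. Of these CRBN, TRNT1 and SUMF1 were higher in OAW42-R by 0.68, 0.55 and 0.51, whereas CHL1 itself differed by 0.02. None of the neighbours of any measured member passed 2-fold. Over all genes above the floor, 0.339% did on the lower side and 0.539% on the higher.

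**Figure D4:**
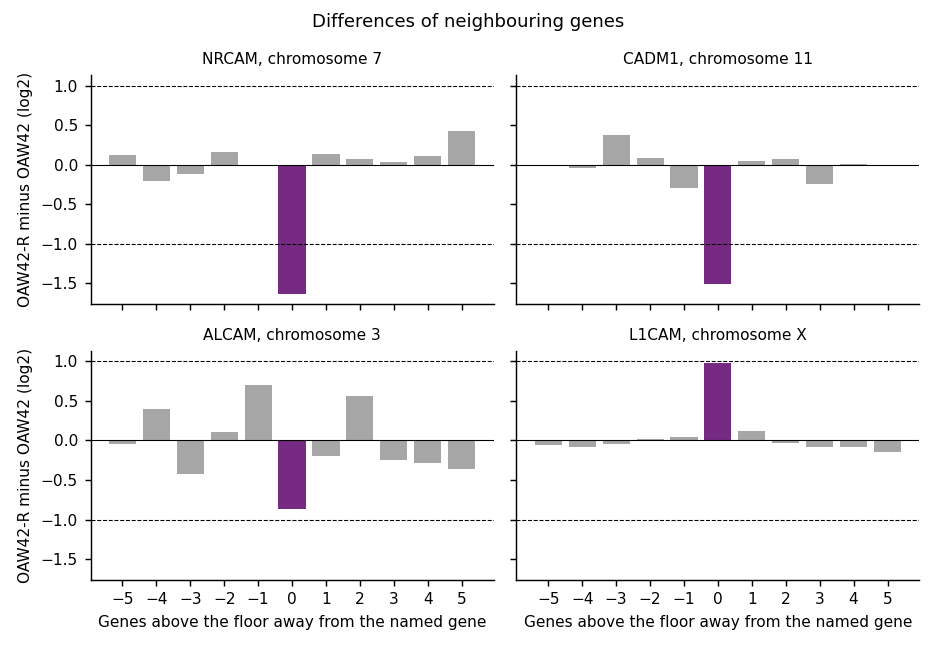
Difference between the lines (OAW42-R minus OAW42, log2, vertical axis) of NRCAM, CADM1, ALCAM and L1CAM in purple and of the 5 nearest genes above the floor on each side in grey, in gene order (horizontal axis), with dashed lines at 2-fold. The purple bars stand alone in the NRCAM, CADM1 and L1CAM panels, and neighbours of ALCAM reach 0.70.

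The genes closest in difference to NRCAM and CADM1 were looked up as a description. Likeness was measured as the distance between differences, over 2 arrays and among the brighter genes, those at or above the 75th percentile on at least 1 array. Closest to NRCAM were the gap junction gene GJA1 (0.06 away), CADM1 itself (0.12) and the corepressor NAB1 (0.14). Closest to CADM1 were NAB1 (0.02 away), the anthrax toxin receptor ANTXR2 (0.05) and ERRFI1, an inhibitor of EGF receptor signalling (0.05). ERRFI1 had a signal of 9.49 in OAW42-R against 10.95 in OAW42. With 1 difference per gene, likeness of this kind says only that the sizes are close.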

How the data were processed

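Total RNA of OAW42-R and OAW42 (1 sample each, with groups taken from the labelled line) was converted to biotin-labelled single-strand cDNA and hybridised to Affymetrix human transcriptome arrays. The authors normalised the arrays by RMA over their set of samples, and deposited log2 values, rounded to 2 decimals, for every transcript cluster. The build and the annotation release are not given in the sources used here. RMA hides shifts in total RNA per cell and compresses folds near background.

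Gene symbols came from the platform annotation. Of 67524 clusters, 23780 had 1 symbol, 1541 had several and named no gene, and 42203 had none. Symbols were updated with RefSeq genes of GRCh38.p14, by Entrez identifier (21497), symbol (1974) or older symbol (305), and 4 were kept. That table gave names and gene order only. The cluster with the highest mean represented a gene. Named were all members, up to 4 genes of each list, those that differed most, the 3 genes closest to NRCAM and to CADM1, and neighbours. The contactins, other nectins, EPB41L3, CRTAM, polysialyltransferases and neighbours of members other than NRCAM and CADM1 were named after values were seen. Members and lists were chosen with earlier results of these data known. Counting was tested on simulated data. Alternatives were centring, quantile normalisation, loess, other cluster rules, floors and thresholds. The software was Python 3.11.15 with numpy 2.4.6, pandas 2.3.3, statsmodels 0.14.6 and matplotlib 3.10.9.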

Additional observations from a re-analysis of the deposited data

How the results depend on the processing

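No paired analysis was possible because each line has a single array, and for the same reason leaving out a replicate could not be done. Under 3 rescalings of the arrays and 2 other ways to represent a gene, the difference of NRCAM stayed between -1.66 and -1.63, that of CADM1 between -1.54 and -1.51, that of L1CAM between 0.95 and 0.98, and that of ALCAM between -0.90 and -0.87. CHL1 lay between 0.00 and 0.02 and NFASC between -0.05 and -0.02, so both stayed within 0.1 of no difference. The counts of members past 2-fold kept their values under every rescaling, cluster rule and floor tried, and each member has a single cluster, so the cluster rules could not move it. Thresholds moved counts by construction. At 1.5-fold, 1 member was higher, as were 1 CADM partner, 3 other adhesion genes and 322 of all genes, and 2 partners of NCAM1 and ALCAM and 210 of all genes were lower. At 4-fold, 0 members, 0 CADM partners and 0 other adhesion genes were counted, with 22 of all genes higher and 12 lower. The median of the partners of NCAM1 and ALCAM was -0.08 with no floor and -0.47 when the floor was raised to the 75th percentile, since the genes counted changed. Signals near the array median, as of NFASC on both arrays and CADM1 in OAW42-R, limit what can be read from those genes.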

Other observations

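Some members have an antisense RNA gene at the same locus. The gene table lists 8 such genes, and 4 had a cluster of their own. NCAM1-AS1 had a signal of 6.92 in OAW42-R against 7.06 in OAW42, a difference of -0.14. CHL1-AS1 and CHL1-AS2 differed by 0.13 and -0.33, with signals of 7.34 and 6.55 in OAW42-R and 7.21 and 6.88 in OAW42. CADM2-AS2 was below the floor, with 4.69 in OAW42-R against 4.76 in OAW42. None reached 1.5-fold, which 1.32% of all genes above the floor did on the lower side and 2.02% on the higher. NRCAM and CADM1 had no antisense gene with a cluster in the annotation used.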
